A study of Rattus norvegicus with 16 samples.

Results

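Beta cell disallowed genes are genes that most tissues express but that mature insulin-producing beta cells keep at a low level. The 10 followed here in cultured rat islets were Tst, Oat, Ldha, Slc16a1, Smad3, Cxcl12, Igfbp4, Arap2, Lmo4 and Maf. They were taken by gene symbol, with no threshold on the values of these arrays. The list itself was chosen with earlier results of these data known. All 10 symbols were found, with 20 probe sets between them, among 14217 genes and 31042 probe sets other than controls. The best known example is the pair of the lactate dehydrogenase subunit Ldha and the lactate and pyruvate carrier Slc16a1 (MCT1). With little of either, pyruvate made by glycolysis in a beta cell goes to the mitochondria, and pyruvate or lactate from the blood does not trigger insulin release. Other disallowed genes encode unrelated metabolic, signalling and transcriptional proteins, grouped by their low level in beta cells.

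The islets came from male Wistar rats 8 weeks old and were cultured in medium with 8 mM glucose and 10% serum. The 3 conditions were measured on 1-colour Affymetrix arrays: AdNkx6.1, an adenovirus carrying the beta cell transcription factor Nkx6.1 (n = 5 arrays), Adβgal, a control adenovirus carrying β-galactosidase (n = 6), and no virus (untreated, n = 5). Both viruses were added at the same approximate concentration, stayed on the islets for 18 h, and were then replaced by medium without virus until collection at 48 h. Array titles say biological replicate without naming animals or isolations, so p-values cover the spread between these arrays, which may be in part technical. The treatment protocol gives 5 replicates per condition, whereas 6 Adβgal arrays were deposited and used.

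Values are log2 of the deposited probe set intensities, given as mean ± SD of the arrays. Changes are differences on the log2 scale ± SE from 1 limma fit over the 3 groups, with p-values adjusted over all 14217 genes (Benjamini-Hochberg) and a threshold of 0.05. Where a gene had several probe sets, the one with the highest mean over all arrays stands for the gene. Islets hold several cell types, so a change in the number of cells of a type and a change in RNA per cell cannot be told apart. The 9 measured beta cell markers were present at high intensity on all arrays. Ins1 lay between 14.43 and 14.84 in AdNkx6.1 islets, between 14.54 and 14.86 in Adβgal islets and between 14.62 and 14.89 in untreated islets. The mean log2 intensity of 9 beta cell markers ran from 12.92 to 13.05 in AdNkx6.1 islets, from 13.10 to 13.25 in Adβgal islets and from 13.33 to 13.45 in untreated islets. That of 9 alpha, delta and PP cell markers ran from 11.21 to 11.51, from 11.72 to 12.13 and from 12.01 to 12.13 in the same order of groups. Of each of these 9, 7 were lower in AdNkx6.1 than in untreated islets by limma and none higher, beside 13.8% of all genes lower. Against Adβgal, 2 of the beta cell markers and 6 of the others were lower and none higher, beside 8.48% of all genes lower. The part of these marker levels in the changes of the disallowed genes was not tested. The probe set of Nkx6-1 itself was lower with AdNkx6.1 than with Adβgal, with a change of -0.46 ± 0.10 (limma adjusted p = 0.0023). Whether this probe set reads the delivered sequence is not given in the sources used here, so it does not check the labels.

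Adβgal replicates 4, 5 and 6 stood apart in markers of acinar cells. The mean of 17 acinar markers, genes of digestive enzyme cells, was 12.04, 11.42 and 11.50 on these arrays, against 10.41, 9.35 and 10.84 on Adβgal replicates 1, 2 and 3. It ran from 9.16 to 10.77 in AdNkx6.1 islets and from 9.77 to 10.53 in untreated islets. The same 3 arrays were the highest of the Adβgal group in other markers. Means of 20 macrophage and leukocyte markers were 9.13, 9.19 and 9.57, against 8.69, 8.65 and 8.74 on replicates 1, 2 and 3. Those of 10 duct markers were 11.26, 11.32 and 11.37, against 10.81, 10.70 and 11.13. The duct means overlapped those of AdNkx6.1 islets (11.07 to 11.32). Replicate 5 also had the highest mean of 10 endothelial markers, 11.37, where the other Adβgal arrays lay between 8.73 and 10.76. No marker was at 0, since an array gives every probe set a value. Results on the disallowed genes are therefore also given without these 3 arrays where that changes them.

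AdNkx6.1 against Adβgal asks what the Nkx6.1 virus changes beyond the control virus. Of the 10 genes, 3 rose (Tst, Smad3 and Ldha), 3 fell (Lmo4, Igfbp4 and Arap2) and 4 did not pass the test (Slc16a1, Oat, Cxcl12 and Maf). Over all genes tested, 25% passed, 16.6% higher and 8.48% lower; after a further quantile normalization of the arrays 14.6% were higher and 12.7% lower, and the counts for these 10 genes were the same. The median change of the 10 genes was 0.11, where that of all genes was 0.02. Without Adβgal replicates 4, 5 and 6, Oat and Slc16a1 also passed, which gave 5 higher and 3 lower, beside 28.3% of all genes (18% higher, 10.4% lower).

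Setting Adβgal beside untreated islets asks about the control virus by itself. Only Arap2 of the 10 passed the test, and it was lower, beside 7.01% of all genes passing (2.84% higher, 4.17% lower). AdNkx6.1 against untreated gave 3 genes higher (Tst, Smad3 and Ldha) and 3 lower (Arap2, Igfbp4 and Lmo4), beside 30.7% of all genes (16.9% higher, 13.8% lower). These comparisons share arrays with the first one and are not independent of it. The median change of the 10 genes was 0.11 for Adβgal and 0.30 for AdNkx6.1 against untreated, where that of all genes was -0.04 and -0.01.

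**Figure D1:**
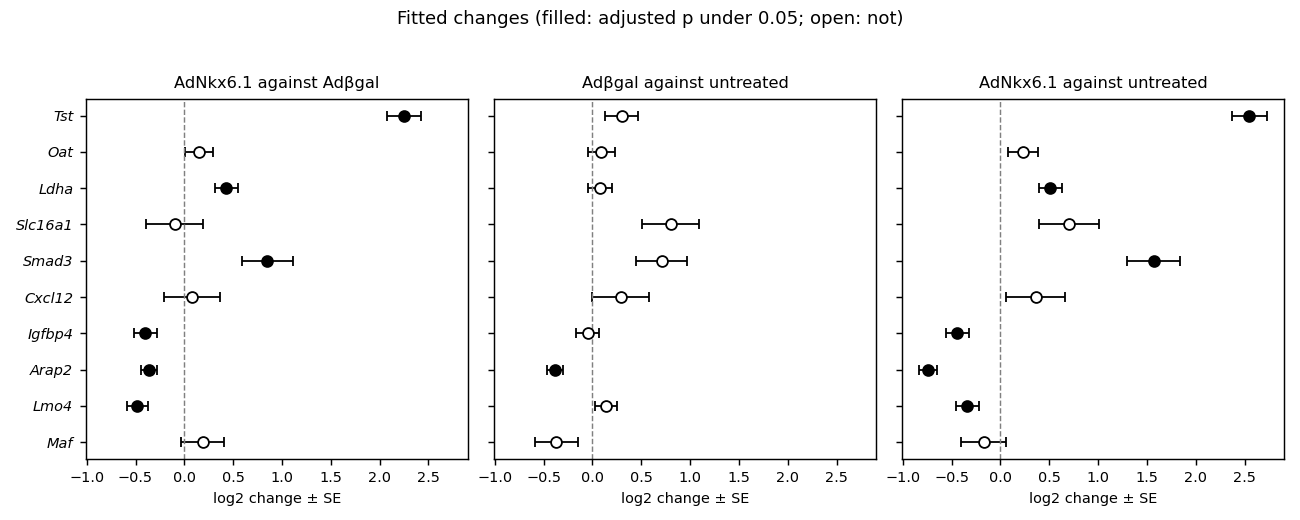
Log2 changes with SE of the 10 disallowed genes in each of the 3 comparisons, filled where the limma adjusted p was under 0.05 and open where it was not. Tst has the largest change of the 10 in both comparisons with AdNkx6.1 (2.25 and 2.55), and Arap2 is the only filled point in Adβgal against untreated (-0.38).

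Tst encodes thiosulfate sulfurtransferase (rhodanese), a mitochondrial enzyme that moves sulfur onto cyanide and takes part in sulfide oxidation. In AdNkx6.1 islets its log2 intensity was 10.29, 9.88, 10.06, 10.23 and 10.17, a geometric mean intensity of 1116. In Adβgal islets the lowest value was 7.39, the median 7.76 and the highest 8.52, a geometric mean intensity of 235. Untreated islets gave 7.76, 7.50, 7.82, 7.49 and 7.29, a geometric mean intensity of 191. The 5 AdNkx6.1 arrays exceeded all Adβgal and untreated arrays, and the highest Adβgal array was replicate 5. Over all genes, 14.2% had AdNkx6.1 and Adβgal arrays that did not overlap. Tst rose 4.76-fold with AdNkx6.1 against Adβgal (2.25 ± 0.17, limma adjusted p = 1.4e-07) and 5.85-fold against untreated (2.55 ± 0.18, adjusted p = 5.1e-08). The difference of Adβgal from untreated, 0.30 ± 0.17, did not pass (limma adjusted p = 0.29). Leaving out Adβgal replicates 4, 5 and 6 gave 2.42 against Adβgal.

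The sulfur partners of Tst were a list of 11 genes, all measured, of which 2 rose with AdNkx6.1 against Adβgal and none fell, beside 25% of all genes that passed. After quantile normalization 2 also fell, and with array weights 3 rose and 2 fell, beside 27.2% and 34.7% of all genes that passed under these settings. The genes named from this and the other partner lists were picked mainly by the smallest limma p in AdNkx6.1 against Adβgal. Their small p-values follow in part from that choice. Mpst, mercaptopyruvate sulfurtransferase, is a paralog of Tst and its neighbour in the RefSeq annotation, where the spans of the genes overlap. Its log2 intensity was 11.95, 11.73, 11.73, 11.66 and 11.85 in AdNkx6.1 islets, against a lowest value of 10.45 and a highest of 10.99 in Adβgal islets and 10.50 to 10.96 in untreated islets. It rose 2-fold against Adβgal (SE 0.10 on the log2 scale, limma adjusted p = 3.3e-06), with no overlap of the arrays. Ethe1, the persulfide dioxygenase of the same mitochondrial pathway, averaged 10.97 ± 0.16 in AdNkx6.1 islets, 9.91 ± 0.39 in Adβgal islets and 9.60 ± 0.10 in untreated islets, 2.09-fold above Adβgal (1.07 ± 0.15, limma adjusted p = 6.9e-05). Cth, which makes cysteine, had a change of -0.56 ± 0.21 that did not pass (limma adjusted p = 0.061). Whether Mpst RNA also binds the Tst probe set was not tested.

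**Figure D2:**
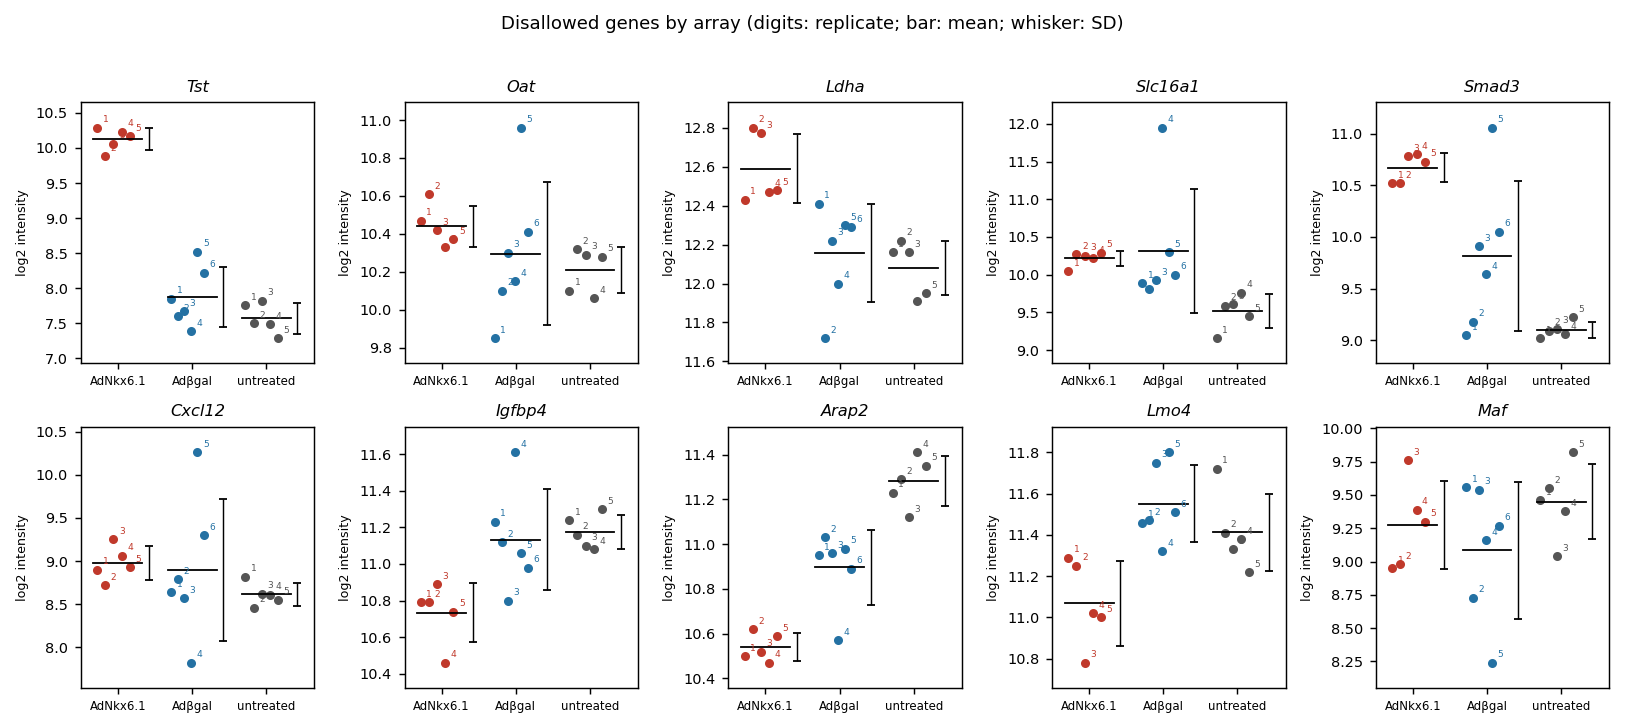
Log2 intensity of the 10 disallowed genes on each array, with the replicate number beside each point, the group mean as a bar and the SD as a whisker. The 5 AdNkx6.1 points of Tst lie between 9.88 and 10.29, above all other arrays, and Slc16a1 has a single Adβgal array at 11.95.

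Ldha, the muscle-type lactate dehydrogenase subunit that converts pyruvate and lactate, and Slc16a1, which carries both across the plasma membrane, are the classical disallowed pair. Their start regions are printed because each holds the E-box letters CACGTG, which no other matched gene of the 10 did. The windows run from 250 bases before to 50 bases after the start that the RefSeq promoter table uses (GRCr8), which for Slc16a1, Arap2, Lmo4 and Maf lies inside the annotated gene rather than at its outer end. They are chr1:106507842-106508141 on the + strand for Ldha and chr2:194812410-194812709 on the + strand for Slc16a1. Capitals mark CACGTG and the core ACGTG on either strand (CACGT on the other), which overlaps it.
Ldha: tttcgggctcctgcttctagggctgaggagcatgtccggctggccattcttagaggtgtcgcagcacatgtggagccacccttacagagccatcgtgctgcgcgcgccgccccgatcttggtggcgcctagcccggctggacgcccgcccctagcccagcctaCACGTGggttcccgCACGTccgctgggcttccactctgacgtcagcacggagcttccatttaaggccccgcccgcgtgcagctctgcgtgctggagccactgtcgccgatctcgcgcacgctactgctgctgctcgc
Slc16a1: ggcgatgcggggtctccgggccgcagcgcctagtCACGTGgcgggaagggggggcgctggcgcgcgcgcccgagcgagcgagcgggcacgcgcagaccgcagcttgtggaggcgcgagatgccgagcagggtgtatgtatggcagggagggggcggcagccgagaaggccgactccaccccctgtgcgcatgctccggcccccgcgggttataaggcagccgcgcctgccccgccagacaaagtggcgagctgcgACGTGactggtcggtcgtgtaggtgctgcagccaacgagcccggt

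Of the 10 genes, 9 had an entry in the promoter table, and Tst had none. CACGTG stood in 2 of the 9 windows and in 6.42% of all 33469 windows of that length. In Ldha it began 87 bases before the start, with a further CACGT 73 bases before the start, and in Slc16a1 it began 216 bases before the start. ACGTG on either strand stood in 3 of 9 (Ldha, Slc16a1 and Oat) and in 19.3% of all windows. GGGCGG, the SP1 box, stood in 7 of 9 and in 33.1% of all. TATAAA stood in 1 of 9 (Igfbp4) and in 14.2% of all, and GTCTAGAC, the palindromic SMAD box, in 0 of 9 and in 0.197% of all. These are matches of letters on both strands and no measure of binding.

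Ldha had log2 intensities of 12.43, 12.80, 12.77, 12.47 and 12.48 in AdNkx6.1 islets. Its Adβgal values had a lowest of 11.72, a median of 12.25 and a highest of 12.41, and untreated islets gave 12.16, 12.22, 12.16, 11.91 and 11.95. Each AdNkx6.1 array was above each Adβgal array (the closest were 12.43 and 12.41) and above each untreated array. Ldha rose 1.35-fold against Adβgal (0.43 ± 0.12, limma adjusted p = 0.014) and 1.42-fold against untreated (0.51 ± 0.12, adjusted p = 0.0055), and Adβgal differed from untreated by 0.08 ± 0.12 (adjusted p = 0.73).

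Slc16a1 had log2 intensities of 10.05, 10.27, 10.25, 10.22 and 10.29 in AdNkx6.1 islets. Adβgal replicates 1 to 6 gave 9.89, 9.81, 9.93, 11.95, 10.30 and 10.00, and untreated islets 9.16, 9.59, 9.61, 9.76 and 9.45. Both virus groups lay above all untreated arrays, and Adβgal replicate 4, the array with the highest acinar mean, stood off from the next at 10.30. Over all genes, 6.88% did not overlap between Adβgal and untreated and 32.1% between AdNkx6.1 and untreated. The changes were -0.10 ± 0.29 for AdNkx6.1 against Adβgal (limma adjusted p = 0.85), 0.80 ± 0.29 for Adβgal against untreated (adjusted p = 0.1) and 0.70 ± 0.31 for AdNkx6.1 against untreated (adjusted p = 0.096). The changes that use the Adβgal mean rest on replicate 4, and the SE of all 3 comparisons comes from 1 spread shared by the groups. Without it Adβgal was 0.47 above untreated (limma adjusted p = 0.022), AdNkx6.1 was 0.70 above untreated (adjusted p = 0.00019), and AdNkx6.1 differed from Adβgal by 0.23 (adjusted p = 0.15). Without replicates 4, 5 and 6, AdNkx6.1 exceeded Adβgal by 0.34 (limma adjusted p = 0.036) and Adβgal exceeded untreated by 0.36 (adjusted p = 0.088). A second, dim Slc16a1 probe set passed in none of the comparisons (-0.03, -0.16 and -0.20).

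Lactate and pyruvate handling was followed in 19 measured partner genes of 21 listed. With AdNkx6.1 against Adβgal, 4 rose and 2 fell, beside 16.6% higher and 8.48% lower of all genes. Pdk2, a kinase that switches pyruvate dehydrogenase off, was 10.74, 10.61, 10.51, 10.73 and 10.72 in AdNkx6.1 islets, against 9.32 to 10.01 in Adβgal islets and 10.21 to 10.45 in untreated islets. It rose 1.8-fold against Adβgal (0.85 ± 0.10, limma adjusted p = 1.9e-05), and it was lower in Adβgal than in untreated islets (-0.50 ± 0.10, adjusted p = 0.011). Pdk4, another of these kinases, went the other way. It was 9.91 to 10.12 in AdNkx6.1 islets, against 10.32 to 11.24 in Adβgal and 10.91 to 11.19 in untreated islets, and fell 1.81-fold against Adβgal (-0.86 ± 0.14, limma adjusted p = 0.00033). The lowest Pdk4 values with Adβgal were those of replicates 5 and 6. Of the pyruvate dehydrogenase subunits, Pdha1 fell (-0.32 ± 0.06, limma adjusted p = 0.00065) and Pdhb rose (0.30 ± 0.06, adjusted p = 0.0023). Pdhb was itself lower in Adβgal than in untreated islets (-0.31 ± 0.06, limma adjusted p = 0.011). Its mean was 12.16 in both AdNkx6.1 and untreated islets, and 11.85 in Adβgal islets. Bsg, the chaperone of Slc16a1, rose by 0.32 (limma adjusted p = 0.021), and Mpc1, a subunit of the mitochondrial pyruvate carrier, by 0.27 (adjusted p = 0.0082). Against untreated islets Bsg did not pass (0.18, limma adjusted p = 0.2) and Mpc1 did (0.25, adjusted p = 0.017). Pdk2, Pdk4 and Pdha1 were named because they had the smallest p-values of the list by limma. Bsg, Mpc1 and Pdhb were chosen for naming after their values were seen. Ldhb, the heart-type subunit, had a change of -0.07 ± 0.10 that did not pass (limma adjusted p = 0.67).

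Oat encodes ornithine aminotransferase, a mitochondrial enzyme that links ornithine to glutamate and proline. AdNkx6.1 islets gave 10.47, 10.61, 10.42, 10.33 and 10.37. Adβgal islets gave a lowest value of 9.85, a median of 10.23 and a highest of 10.96, on replicate 5. Untreated islets gave 10.10, 10.32, 10.29, 10.06 and 10.28. The AdNkx6.1 arrays were all above the untreated arrays (the closest were 10.33 and 10.32) and overlapped the Adβgal arrays. Oat passed in none of the comparisons, with 0.15 ± 0.14 against Adβgal (limma adjusted p = 0.5) and 0.23 ± 0.15 against untreated (adjusted p = 0.27). Without Adβgal replicate 5 the first was 0.28 (limma adjusted p = 0.044), and without replicates 4, 5 and 6 it was 0.36 (adjusted p = 0.019).

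Of 11 measured partners of Oat in ornithine and proline metabolism, 3 rose and 2 fell with AdNkx6.1 against Adβgal. Over all genes, 16.6% were higher and 8.48% lower. Arg2, the mitochondrial arginase that makes ornithine, was 8.80, 8.56, 8.19, 8.69 and 8.49 in AdNkx6.1 islets, against 6.25 to 7.10 in Adβgal and 6.94 to 7.35 in untreated islets. Its arrays did not overlap, and it rose 3.14-fold (1.65 ± 0.15, limma adjusted p = 7.1e-07). Aldh4a1, which oxidises the product of Oat to glutamate, was 2.21-fold higher (1.14 ± 0.12, limma adjusted p = 6e-06), also without overlap. For Aldh4a1, Adβgal was itself below untreated (-0.48 ± 0.12, limma adjusted p = 0.032). AdNkx6.1 was 1.59-fold above untreated (0.67 ± 0.13, limma adjusted p = 0.001). Arg1, the cytosolic arginase, fell by 0.46 ± 0.11 (limma adjusted p = 0.006), with overlapping arrays. The 2 others that passed, named after their values were seen, were Azin1, which stabilises ornithine decarboxylase (0.28 ± 0.09, limma adjusted p = 0.03), and the mitochondrial ornithine carrier Slc25a15 (-0.26 ± 0.09, adjusted p = 0.039).

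**Figure D3:**
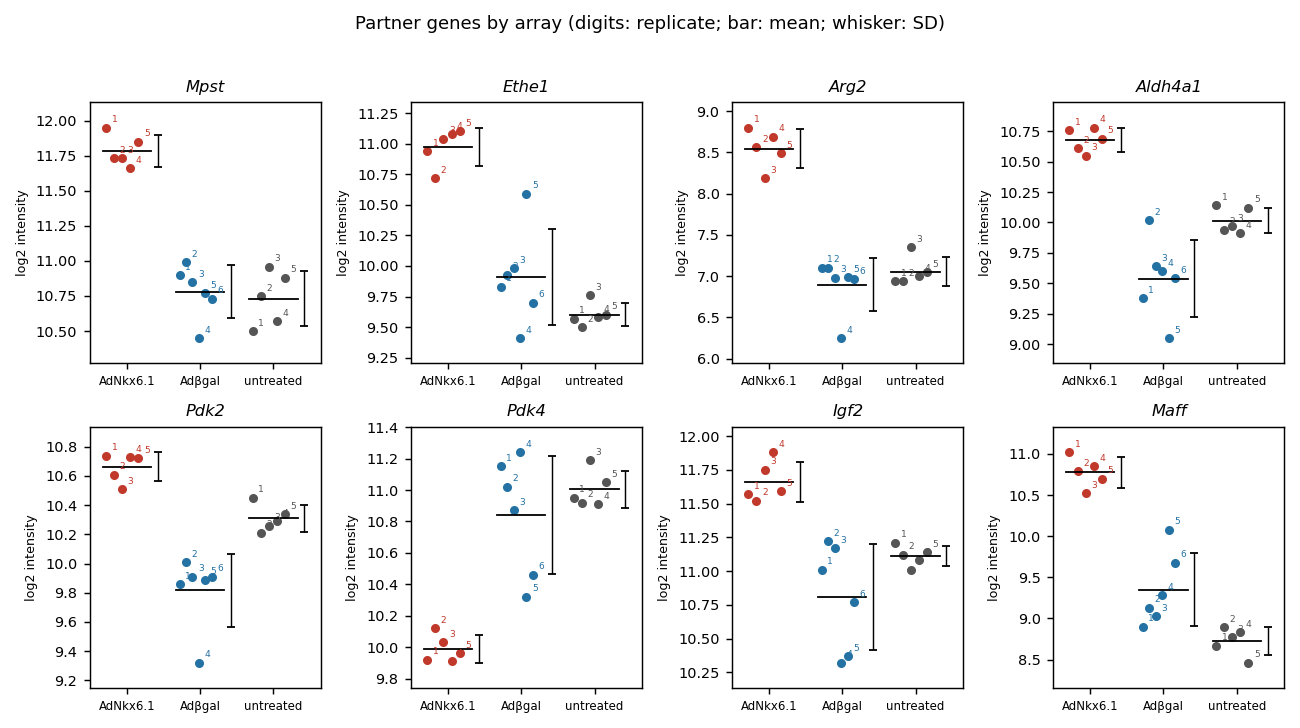
Log2 intensity of 8 partner genes of the disallowed genes on each array, with the replicate number beside each point, the group mean as a bar and the SD as a whisker. Mpst, Ethe1, Arg2, Aldh4a1, Pdk2, Igf2 and Maff are higher on every AdNkx6.1 array than on every Adβgal array, and Pdk4 is lower. The 8 genes are among those with the smallest limma p of their lists in AdNkx6.1 against Adβgal.

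Smad3 carries the signal of TGF-β and activin receptors to the nucleus. Its log2 intensity was 10.52, 10.52, 10.78, 10.80 and 10.73 in AdNkx6.1 islets. Adβgal replicates 1 to 6 gave 9.05, 9.18, 9.91, 9.64, 11.06 and 10.05, and untreated islets 9.02, 9.09, 9.11, 9.06 and 9.22. The AdNkx6.1 arrays lay far above the untreated arrays, and the Adβgal arrays spread from the untreated level to above the AdNkx6.1 level, with replicate 5 the highest of all 16 arrays. Smad3 rose 2.96-fold with AdNkx6.1 against untreated (1.57 ± 0.27, limma adjusted p = 0.00032) and 1.81-fold against Adβgal (0.85 ± 0.26, adjusted p = 0.022). Adβgal was above untreated by 0.71 ± 0.26, which did not pass (limma adjusted p = 0.095). Without Adβgal replicate 5 the change against Adβgal was 1.10 (limma adjusted p = 9.9e-05), and without replicates 4, 5 and 6 it was 1.29 (adjusted p = 4.1e-05) while Adβgal exceeded untreated by 0.28 (adjusted p = 0.31). The change against Adβgal no longer passed without AdNkx6.1 replicate 4 (0.82, limma adjusted p = 0.052) or with only these groups in the fit (adjusted p = 0.068). A second Smad3 probe set, with group means of 4.63, 4.51 and 4.72 in AdNkx6.1, Adβgal and untreated islets, did not pass (0.12 against Adβgal, limma adjusted p = 0.59 over probe sets).

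Of 17 measured TGF-β and SMAD genes other than Smad3, 1 rose and 2 fell with AdNkx6.1 against Adβgal, beside 25% of all genes that passed. The ligand Tgfb3 averaged 10.20 ± 0.06 in AdNkx6.1 islets, 9.79 ± 0.23 in Adβgal islets and 9.36 ± 0.15 in untreated islets. It was higher in AdNkx6.1 than in Adβgal islets (0.42 ± 0.10, limma adjusted p = 0.0063) and higher in Adβgal than in untreated islets (0.42 ± 0.10, adjusted p = 0.021). Zfyve9 (SARA), which holds SMAD proteins near the receptor, fell by 0.52 ± 0.11 (limma adjusted p = 0.0031), and the receptor Tgfbr1 by 0.29 ± 0.09 (adjusted p = 0.021). Neither passed with its probe sets averaged (Zfyve9 -0.42, limma adjusted p = 0.079, and Tgfbr1 -0.37, adjusted p = 0.06). Tgfbr1 also missed the threshold without Adβgal replicates 4, 5 and 6 (-0.19, limma adjusted p = 0.13), without AdNkx6.1 replicate 4 (-0.24, adjusted p = 0.068) and with only these groups in the fit (adjusted p = 0.06).

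Cxcl12 encodes a chemokine made by stromal and endothelial cells that binds Cxcr4. AdNkx6.1 islets gave 8.90, 8.72, 9.25, 9.06 and 8.93. Adβgal replicates 1 to 6 gave 8.64, 8.79, 8.57, 7.82, 10.26 and 9.30, and untreated islets 8.82, 8.46, 8.62, 8.61 and 8.55. The Adβgal arrays held both the lowest and the highest value of all 16, the highest on replicate 5, which also had the highest endothelial mean; the part of the endothelial signal in it was not tested. The 3 changes, 0.08 ± 0.29, 0.29 ± 0.29 and 0.36 ± 0.30, did not pass (limma adjusted p = 0.88, 0.57 and 0.41, in the order AdNkx6.1 over Adβgal, Adβgal over untreated, AdNkx6.1 over untreated). Without Adβgal replicates 4, 5 and 6 the first was 0.31 (limma adjusted p = 0.056). A second Cxcl12 probe set was higher in Adβgal than in untreated islets (means 8.15 and 7.27, a change of 0.88 ± 0.24, limma adjusted p = 0.033 over probe sets), so the probe sets of this gene differed; over probe sets, 8.65% of all passed in this comparison (4.58% higher, 4.07% lower). Of 8 measured partners, Dpp4, a peptidase that cuts Cxcl12, fell 2.17-fold against Adβgal (-1.11 ± 0.20, limma adjusted p = 0.0006) and the arrestin Arrb2 rose by 0.37 ± 0.09 (adjusted p = 0.0045). Over all genes, 25% passed in AdNkx6.1 against Adβgal. Dpp4 was 6.02 to 6.73 in AdNkx6.1 islets, 7.08 to 8.22 in Adβgal islets and 6.83 to 7.46 in untreated islets, with no overlap with either; with its probe sets averaged the change was -0.65 (limma adjusted p = 0.017).

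Igfbp4 is a secreted protein that binds insulin-like growth factors. Its log2 intensity was 10.79, 10.79, 10.89, 10.46 and 10.74 in AdNkx6.1 islets. In Adβgal islets the lowest was 10.80, the median 11.09 and the highest 11.61, and untreated islets gave 11.24, 11.16, 11.10, 11.08 and 11.30. AdNkx6.1 arrays were all below the untreated arrays and overlapped the Adβgal arrays at replicate 3 of both. Igfbp4 fell by 0.40 ± 0.12 against Adβgal (limma adjusted p = 0.021) and by 0.44 ± 0.12 against untreated (adjusted p = 0.012). The first no longer passed without AdNkx6.1 replicate 4 (-0.33, limma adjusted p = 0.068), with only these groups in the fit (adjusted p = 0.063) or with the replicate number as a block (-0.43, adjusted p = 0.055).

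Among 13 measured genes of IGF binding, 2 rose and 1 fell with AdNkx6.1 against Adβgal, beside 25% of all genes that passed. The growth factor Igf2 was 11.57, 11.52, 11.75, 11.88 and 11.59 in AdNkx6.1 islets, against 10.32 to 11.22 in Adβgal and 11.01 to 11.21 in untreated islets. It rose 1.8-fold against Adβgal (0.85 ± 0.15, limma adjusted p = 0.00052) and 1.47-fold against untreated (0.55 ± 0.16, adjusted p = 0.014), above all other arrays. With its probe sets averaged the change against Adβgal was 0.21 (limma adjusted p = 0.02), and without Adβgal replicates 4, 5 and 6 it was 0.53 (adjusted p = 0.00054). The binding protein Igfbp1 stood in a different order, with 10.98 ± 0.25 in AdNkx6.1 islets, 10.54 ± 0.14 in Adβgal islets and 11.41 ± 0.19 in untreated islets. Igfbp2 fell by 0.72 ± 0.21 against Adβgal (limma adjusted p = 0.019), and Adβgal was itself below untreated (-0.77 ± 0.21, adjusted p = 0.038). The change of Igfbp2 against Adβgal no longer passed with only these groups in the fit (limma adjusted p = 0.059), without AdNkx6.1 replicate 4 (-0.67, adjusted p = 0.052) or without AdNkx6.1 replicate 5 (-0.65, adjusted p = 0.057).

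Arap2 is a GTPase-activating protein for Arf6 that acts at focal adhesions and endosomes. Its start region is printed because it was the only one of the 9 matched windows to hold TAATTA, the core letters bound by many homeodomain proteins, which stood in 5.36% of all windows. TAATTA (capitals) begins 87 and 77 bases before the start in chr14:50922165-50922464 (GRCr8, + strand, RefSeq).
Arap2: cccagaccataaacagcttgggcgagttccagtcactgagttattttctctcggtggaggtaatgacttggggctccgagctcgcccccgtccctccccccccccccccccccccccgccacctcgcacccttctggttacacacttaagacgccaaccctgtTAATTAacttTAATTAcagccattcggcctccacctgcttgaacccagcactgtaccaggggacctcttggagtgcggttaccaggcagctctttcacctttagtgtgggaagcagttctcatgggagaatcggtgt

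Arap2 was 10.50, 10.62, 10.52, 10.47 and 10.59 in AdNkx6.1 islets. In Adβgal islets the lowest value was 10.57, on replicate 4, the median 10.96 and the highest 11.03, and untreated islets gave 11.23, 11.29, 11.12, 11.41 and 11.35. The untreated arrays were above all others, and AdNkx6.1 and Adβgal overlapped at Adβgal replicate 4 alone, whose neighbour in that group was 10.89. Arap2 fell 1.28-fold with AdNkx6.1 against Adβgal (-0.36 ± 0.08, limma adjusted p = 0.0039), 1.3-fold with Adβgal against untreated (-0.38 ± 0.08, adjusted p = 0.011) and 1.67-fold with AdNkx6.1 against untreated (-0.74 ± 0.09, adjusted p = 8.4e-06). Without Adβgal replicates 4, 5 and 6 Adβgal was still below untreated (-0.30, limma adjusted p = 0.036).

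Lmo4 is a LIM-only adaptor that joins transcription factors without binding DNA itself. Its brightest probe set gave 11.29, 11.25, 10.78, 11.02 and 11.00 in AdNkx6.1 islets. In Adβgal islets the lowest value was 11.32, the median 11.49 and the highest 11.80, and untreated islets gave 11.72, 11.41, 11.33, 11.38 and 11.22. The AdNkx6.1 arrays were all below the Adβgal arrays (the closest were 11.29 and 11.32) and overlapped the untreated arrays. Lmo4 fell 1.4-fold against Adβgal (-0.48 ± 0.11, limma adjusted p = 0.0051) and 1.27-fold against untreated (-0.34 ± 0.12, adjusted p = 0.039). The second of these did not pass with the mean of all 5 Lmo4 probe sets (-0.20, limma adjusted p = 0.2) or with any 1 of several arrays left out (adjusted p from 0.052 to 0.10 without AdNkx6.1 replicate 3, 4 or 5 or untreated replicate 1, 2, 3 or 4). Over probe sets, where 20% of all passed in AdNkx6.1 against Adβgal (11% higher, 8.98% lower), 2 dimmer Lmo4 probe sets also fell (-0.62, limma adjusted p = 0.018, and -1.32, adjusted p = 0.011), and the other two did not pass (-0.22 and -0.14). The probe set with the change of -1.32 had means of 6.17, 7.49 and 6.32 in AdNkx6.1, Adβgal and untreated islets. It was higher in Adβgal than in untreated islets (1.17, limma adjusted p = 0.042). Between AdNkx6.1 and untreated islets it did not pass (-0.15, limma adjusted p = 0.82). Of 11 measured LIM partners, Lmo3 fell (-0.83 ± 0.17, limma adjusted p = 0.0018) and Lhx2 rose (0.62 ± 0.10, adjusted p = 0.00039), Lhx2 at very low intensity (3.85 ± 0.24 in AdNkx6.1 islets and 3.23 ± 0.15 in Adβgal islets). Over all genes, 25% passed in AdNkx6.1 against Adβgal. The change of Lmo3 was -0.46 with its probe sets averaged (limma adjusted p = 0.04), and that of Lhx2 was 0.17 with a pseudocount of 32 (adjusted p = 0.0068).

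Maf (c-MAF) is a large MAF transcription factor found in alpha cells of the islet and in leukocytes. AdNkx6.1 islets gave 8.95, 8.98, 9.76, 9.39 and 9.30. Adβgal islets had a lowest value of 8.24, on replicate 5, a median of 9.21 and a highest of 9.56, and untreated islets gave 9.46, 9.55, 9.04, 9.38 and 9.82. The groups overlapped in every comparison, and none of the changes passed (0.19 ± 0.22, -0.37 ± 0.22 and -0.17 ± 0.23 for AdNkx6.1 against Adβgal, Adβgal against untreated and AdNkx6.1 against untreated, limma adjusted p = 0.58, 0.32 and 0.62). Both other Maf probe sets had a change of -0.20 against Adβgal and did not pass. Of 4 measured relatives, the small MAF proteins Maff and Mafk rose and none fell with AdNkx6.1 against Adβgal, beside 25% of all genes that passed. Mafk rose by 0.26 ± 0.07 (limma adjusted p = 0.014, and 0.052 with only these groups in the fit). Maff was 11.02, 10.79, 10.52, 10.85 and 10.70 in AdNkx6.1 islets, against 8.90 to 10.08 in Adβgal and 8.46 to 8.89 in untreated islets. It rose 2.69-fold against Adβgal (1.43 ± 0.18, limma adjusted p = 1.9e-05), and Adβgal was itself 1.55-fold above untreated (0.63 ± 0.18, adjusted p = 0.041). Mafa, the large MAF protein of mature beta cells, was 13.92 ± 0.10 in AdNkx6.1 islets and 14.04 ± 0.05 in Adβgal islets (-0.12 ± 0.06, limma adjusted p = 0.17), and lower with AdNkx6.1 than in untreated islets, 14.16 ± 0.09 (-0.25 ± 0.06, adjusted p = 0.0078).

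**Figure D4:**
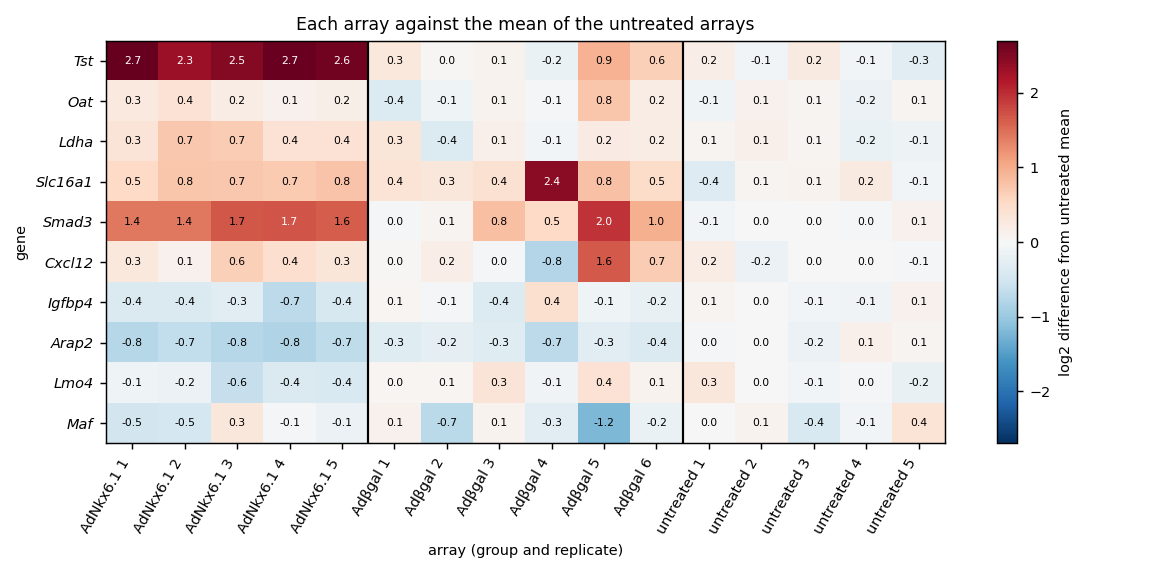
Log2 difference of each array from the mean of the untreated arrays for the 10 disallowed genes, with AdNkx6.1, Adβgal and untreated arrays from left to right. Differences on the AdNkx6.1 arrays run from 2.31 to 2.72 for Tst, and the Adβgal arrays 4 and 5 hold single departures such as 2.44 for Slc16a1 and 1.65 for Cxcl12.

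A further 17 disallowed genes known from studies of islets were listed, of which Yap1, Itih5 and Parp3 were not analysed here. Of the 14 measured, 3 rose with AdNkx6.1 against Adβgal (Acot7, Ndrg2 and Fcgrt), 1 fell (Mgst1) and 10 did not pass, beside the 25% of all genes that passed. Acot7, a fatty acyl-CoA thioesterase, was 11.55, 11.32, 11.02, 11.32 and 11.31 in AdNkx6.1 islets, against 10.72 to 11.28 in Adβgal and 10.65 to 10.91 in untreated islets, with changes of 0.41 ± 0.11 against Adβgal (limma adjusted p = 0.0086) and 0.50 ± 0.11 against untreated (adjusted p = 0.0027). With the probe sets of Acot7 averaged, the change against Adβgal was 0.083 and did not pass (limma adjusted p = 0.56). Ndrg2 averaged 9.66 ± 0.20 in AdNkx6.1 islets, 9.06 ± 0.41 in Adβgal islets and 8.66 ± 0.08 in untreated islets, and rose 1.51-fold against Adβgal (0.60, limma adjusted p = 0.012), with 0.29 as the mean of its probe sets (adjusted p = 0.047). The Fc receptor Fcgrt averaged 11.18 ± 0.08, 10.72 ± 0.35 and 10.37 ± 0.12 in the same groups and rose 1.37-fold against Adβgal (limma adjusted p = 0.02). Fcgrt no longer passed with only these groups in the fit (limma adjusted p = 0.059) or without AdNkx6.1 replicate 5 (0.44, adjusted p = 0.051). The AdNkx6.1 arrays of these 3 genes overlapped the Adβgal arrays at replicate 5 of Adβgal, and they were all above the untreated arrays.

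Mgst1, a microsomal glutathione transferase, fell by 0.67 ± 0.19 against Adβgal (limma adjusted p = 0.016), with 9.40 to 9.97 in AdNkx6.1 islets, 9.66 to 10.98 in Adβgal islets and 9.98 to 10.27 in untreated islets. Its 3 highest arrays were Adβgal replicates 4, 5 and 6, and without them it did not pass (-0.27, limma adjusted p = 0.18). It also missed the threshold without AdNkx6.1 replicate 5 (-0.60, limma adjusted p = 0.052), with only these groups in the fit (adjusted p = 0.054) and with the replicate number as a block (-0.63, adjusted p = 0.076). Cat, the peroxide-splitting enzyme catalase, had a change of -0.21 ± 0.10 that did not pass (limma adjusted p = 0.15), and neither did Pdgfra, the PDGF receptor of stromal cells (-0.45 ± 0.21, adjusted p = 0.13). None of the 14 passed in Adβgal against untreated by limma, where 6 had an unadjusted p-value under 0.05 (Ndrg2, Fcgrt, Zyx, Rest and Zfp36l1 higher and Pcolce lower, named after their values were seen), beside 24.9% of all genes (9.78% higher, 15.1% lower). The median change of the 14 in that comparison was 0.31, and 0.05 without Adβgal replicates 4, 5 and 6. After quantile normalization 1 passed and with array weights 2, all higher, beside 7.64% and 12.6% of all genes. Taking all 24 measured disallowed genes, 6 were higher and 4 lower with AdNkx6.1 against Adβgal, beside 16.6% and 8.48% of all genes. Their median change was -0.09, where that of all genes was 0.02. Without Adβgal replicates 4, 5 and 6, 8 of the 24 were higher and 3 lower, beside 18% and 10.4% of all genes, and their median change was 0.13. Over all 111 measured partner genes, 17 were higher and 9 lower, beside 16.6% and 8.48% of all genes. With array weights the counts were 18 and 17, beside 21.5% and 13.2% of all genes. After quantile normalization they were 17 and 13 (14.6% and 12.7% of all genes), and without Adβgal replicates 4, 5 and 6 15 and 13 (18% and 10.4%).

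The genes whose log2 intensity followed each disallowed gene most closely over the 16 arrays were found by Pearson's r, as a description. The search covered the 14217 genes except placeholder symbols, such as LOC or RGD with a number. The 16 arrays fall into the 3 groups and share them with every gene, so a gene that differs between groups in the same way has a high r. Closest to Tst was Cpt1a (r = 0.99), the carnitine palmitoyltransferase of the mitochondrial outer membrane. Closest to Oat was Plat (0.98), to Ldha Nek6 (0.92), to Slc16a1 Macroh2a2 (0.93) and to Smad3 the kinase Nuak2 (0.96). Closest to Arap2 was Coch (0.96), to Lmo4 Mycbp2 (0.92), to Cxcl12 Tradd (0.92), to Igfbp4 C8h11orf87 (0.92) and to Maf Rbm25 (0.91). Among the 10 genes themselves, Tst had r = 0.83 with Smad3 and 0.80 with Ldha, and -0.80 with Arap2, whereas Slc16a1 had 0.14 with Ldha. The r values of Slc16a1 include Adβgal replicate 4, where it was 11.95 and the next array of that group 10.30. They were not computed without that array, so they do not show whether Slc16a1 and Ldha go together on the others.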

How the data were processed

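RNA of cultured rat islets was measured on 16 1-colour Affymetrix arrays. The authors deposited linear probe set intensities (6.25 to 35765), an intensity table made with RMA per the submitters' processing notes; its version, the detection calls and the return to a linear scale are not given in the sources used here. Log2 values had been foreseen; since the table is linear, log2 was computed here without a pseudocount. Array medians ran from 264.8 to 296.2; the number of arrays limits the precision. No arrays held identical values.

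Of 31099 probe sets, 57 controls were left out. Platform annotation gave 1 symbol to 20826 of the rest, several to 436 and none to 9780. Gene numbers of 20758 matched the RefSeq table (GRCr8), which changed 0 symbols. Each of 14217 genes is its probe set of highest mean, and 4525 genes had more than 1. Probe sets were also fitted and adjusted together, over 31042. Intensities of different probe sets were not compared.

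The test was limma's (lmFit, contrasts.fit, eBayes; limma 3.58.1, R 4.3.3), 2-sided, with Benjamini-Hochberg adjustment, and the fit was tested on simulated data. Tables used pandas 2.3.3 in Python 3.11.15 and figures matplotlib 3.10.9. The disallowed genes, the further disallowed genes, the partner and marker lists and the named genes (all 10 disallowed genes, and from each other list the members with the smallest p for AdNkx6.1 against Adβgal) were chosen with earlier results of these data known. The partner list of Arap2 is not reported here. Alternatives covered probe set choice, normalization, dim genes, a pseudocount of 32, array weights, the groups fitted, a replicate block and arrays left out.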

Additional observations from a re-analysis of the deposited data

Results flagged for a closer look

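An array was marked where the highest or lowest of its group stood off from the nearest other by more than Dixon's critical share of the group's range. About 1 in 20 groups is marked by chance. Of 30 groups of the 10 disallowed genes 2 were marked, and of 102 groups of other named genes 9, where chance would give 1.5 and 5.1.

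For the disallowed genes both lay on Adβgal replicate 4. Arap2 was 10.57 there, below the next at 10.89, and Slc16a1 was 11.95, above the next at 10.30. That array also had the highest acinar mean of the 16, 12.04; the part of acinar signal in these values was not tested.

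On the same array Pdk2 was 9.32 (next 9.86), Arg2 6.25 (next 6.96) and Arf1 13.61 (next 13.84). Acot7 was 11.28 on Adβgal replicate 5 (next 10.91), and Lhx2 was 2.95 on Adβgal replicate 3 (next 3.20). Ndrg2 was 10.01 on AdNkx6.1 replicate 2 (next 9.60). On untreated replicate 3, Ndrg2 was 8.51 (next 8.66), Arg2 7.35 (next 7.05) and Tgfb3 9.62 (next 9.34).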

How the results depend on the processing

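For AdNkx6.1 against Adβgal, the number of disallowed genes that rose was 1 when genes dimmer than the median of all genes were left out, which removes Tst, Smad3, Cxcl12 and Maf from the fit, and 5 without Adβgal replicates 4, 5 and 6. For Adβgal against untreated, 2 genes passed (1 higher) with a gene's probe sets averaged, where Lmo4 was 0.36 (limma adjusted p = 0.045), and 2 (1 higher) with array weights, where Smad3 was 0.56 (adjusted p = 0.03). For AdNkx6.1 against untreated, the number higher was 1 without the dim genes, 5 with array weights and 6 with only these groups in the fit, where Oat, Cxcl12 and Slc16a1 also passed; the cause was not tested. All genes passed more often under these settings too, 52.5% with array weights and 44% with only these groups in the fit, against 30.7%. For Adβgal against untreated, 12.6% of all genes passed with array weights, against 7.01%.

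The replicate block, with Adβgal replicate 6 left out, gave 0 genes for Adβgal against untreated, lower ones included (0), since Arap2 (-0.38) then had a limma adjusted p of 0.057. Arrays of the same number in different groups had deviations correlated between -0.39 and 0.25, and those of different numbers between -0.3 and 0.33. With so few arrays per group these ranges cannot decide whether arrays of the same number share an islet isolation.

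Leaving out each array in turn gave 4 to 7 genes for AdNkx6.1 against Adβgal (2 to 4 higher, 2 to 3 lower), 1 to 2 for Adβgal against untreated (0 to 1 higher, 1 lower) and 5 to 7 for AdNkx6.1 against untreated (3 to 4 higher, 2 to 3 lower).

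Values that changed sign were all of genes that did not pass. For AdNkx6.1 against Adβgal, Cxcl12 was -0.061 with the mean of its probe sets, -0.028 after quantile normalization and -0.14 to 0.35 with an array left out. Maf was -0.067 with the mean of its probe sets and -0.00049 without Adβgal replicates 4, 5 and 6. Slc16a1 was 0.25 with array weights, 0.34 without those 3 arrays, where it passed, and -0.20 to 0.23 with an array left out. For Adβgal against untreated, Oat was -0.13 without them and -0.048 to 0.17 with an array left out, and Igfbp4 was -0.14 to 0.021. Detection calls were not used here, so changes of dim probe sets are less certain.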
